A study of Danio rerio with 2 samples.

Results

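Amino acids and small peptides cross cell membranes on solute carriers, proteins encoded by the SLC gene families. In the gut and the kidney tubule, apical carriers take up di- and tripeptides with protons and single amino acids with sodium or by exchange, and basolateral carriers pass them on to the blood. In the nervous system, relatives of the same families clear glutamate, GABA, glycine and monoamines from synapses. Other members serve most cells, among them the light and heavy chains that pair into heteromeric exchangers and the glutamine carriers of liver and muscle.

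The genes described are those whose symbol begins with slc1a, slc3a, slc6a, slc7a, slc15a, slc36a, slc38a or slc43a followed by a digit, in any letter case. The table held 88 such loci of 40114, which carry 87 distinct symbols because slc1a5 is listed at 2 loci. They were measured in whole zebrafish larvae at 5 days post-fertilization (dpf), the first group being homozygous for lri12 and the second their wild-type clutch-mates. Each genotype was 1 RNA library from 20 pooled larvae. The gene that lri12 alters is not named in the labels, so the mutation itself could not be checked in these libraries.

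Values are FPKM as the authors computed them, which correct a fragment count for the length of the transcript and the size of the library. A level in FPKM is already set per transcript length, so genes may be compared with each other. A pseudocount of 1 was added to each FPKM before the ratio of mutant over wild type was put on the log2 scale. Folds are on this scale too, so those of weakly expressed genes come out smaller than the plain ratio. With 1 pool per genotype there is no replicate error and no test, and every statement below compares 2 libraries, not 2 genotypes. In a whole-body pool, fewer cells of a type and less RNA per cell cannot be told apart.

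Of the 87 symbols, 78 averaged 1 FPKM or more across the pools and entered, as did 18664 genes in all. The 9 that did not enter lay between 0.0835 and 0.987 FPKM in the mutant and between 0.0264 and 0.998 FPKM in wild type. They include both loci of SLC7A11, the cystine and glutamate exchanger, both of SLC38A11, slc6a4b, slc7a14b, SLC15A5 and SLC38A8 (2 of 2). By known site of action in mammals and fish, 16 of the entering symbols were classed as gut and kidney carriers, 27 as neural and 34 as general. The remaining symbol, slc7a6os, lies on the strand opposite slc7a6 and encodes no carrier. It stood at 19.2 FPKM in the mutant and 18.5 FPKM in wild type.

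Gut and kidney carriers were lower in the mutant pool, and neural carriers lay close to their wild-type levels. The median log2 difference was -0.45 over the 16 gut and kidney carriers and -0.04 over the 27 neural carriers, a gap of -0.40. The 34 general carriers had a median of -0.10, and all genes that entered had one of 0.004. Of the gut and kidney carriers 15 were below 0 and 1 above, whereas the neural carriers divided into 15 below and 12 above. Over all 18664 genes that entered, 9084 were below 0 and 9580 above. At least 1.5-fold lower were 6 of 16 gut and kidney carriers, 1 of 27 neural and 0 of 34 general ones. Among all genes 1.68% were that much lower, and 0.804% were that much higher, against 0 of the 78 members. At 2-fold the members counted 0 lower and 0 higher, beside 0.439% and 0.289% of all genes. The count was read at matched levels as well. From 1 to under 5 FPKM, 1 of 5 gut and kidney carriers was at least 1.5-fold lower, where 1.29% of all genes were. From 5 to under 20 FPKM this held for 4 of 6 (1.55% of all genes), beside 1 of 9 neural and 0 of 19 general carriers. From 20 to under 200 FPKM it held for 1 of 5 (2.29% of all genes), beside 0 of 6 neural and 0 of 6 general carriers.

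**Figure D1:**
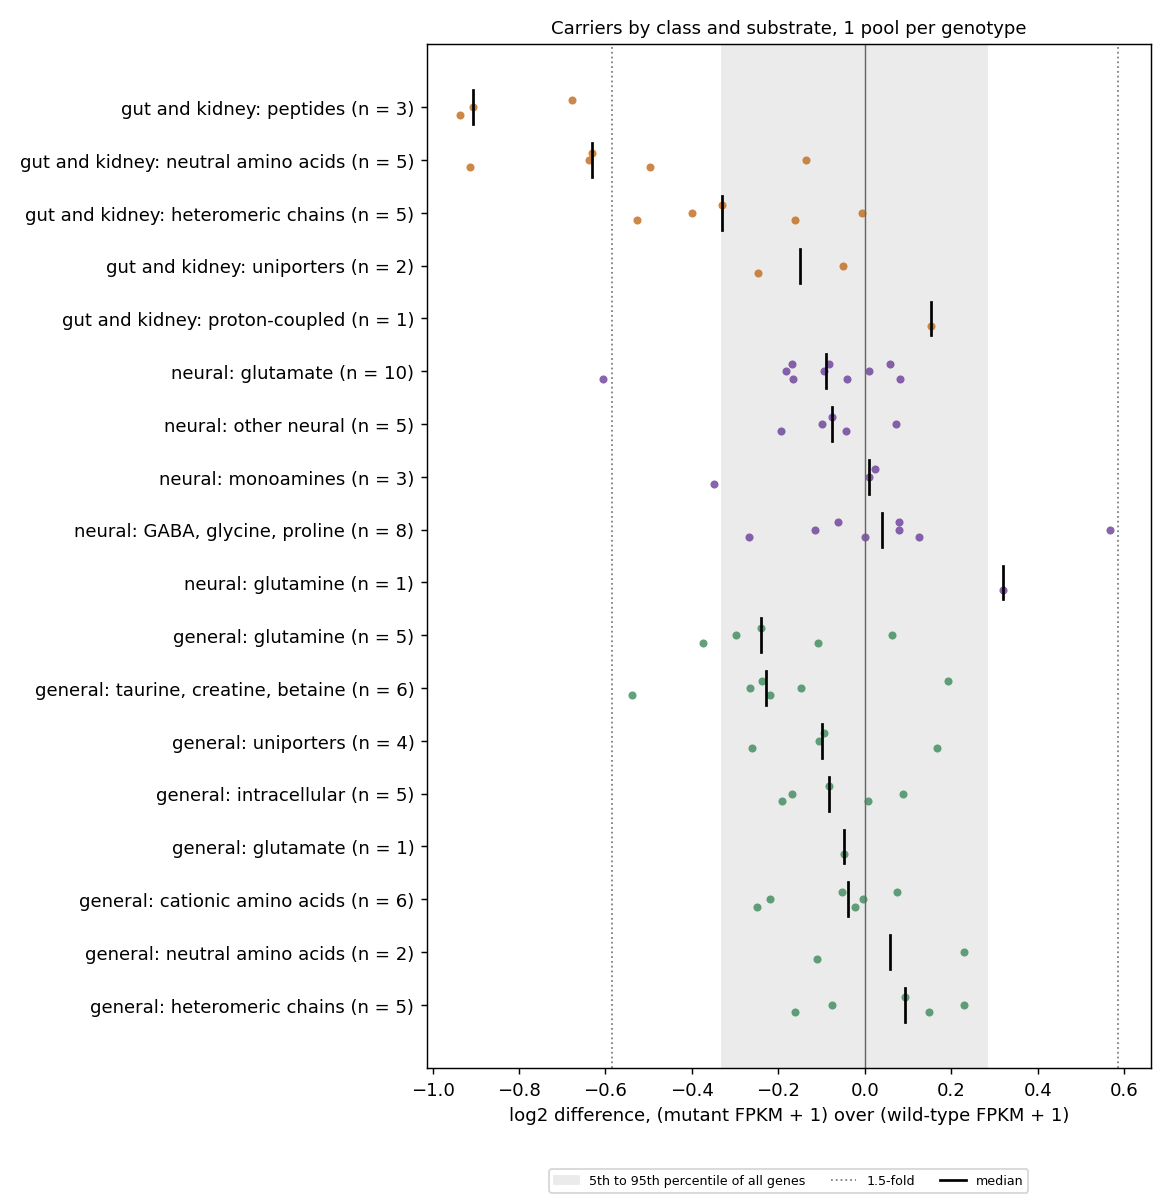
Log2 difference of each entering carrier, mutant over wild type on the log2(FPKM + 1) scale, in rows by class and substrate. Points are genes, black ticks are medians, the grey band runs from the 5th to the 95th percentile of all genes (-0.33 to 0.28) and dotted lines mark 1.5-fold. The gut and kidney peptide and neutral amino acid carriers stand furthest to the left, with medians of -0.91 and -0.63.

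Peptide carriers were the lowest set. PEPT1, the proton-coupled transporter that takes up di- and tripeptides at the intestinal brush border, has a pair of zebrafish genes, slc15a1a and slc15a1b. The gene slc15a1b (chromosome 6, 12468346 to 12499964 in the build Zv9) stood at 17.8 FPKM in the mutant and 35.0 FPKM in wild type, 1.91-fold lower. Its paralogue slc15a1a (chromosome 9, 979741 to 1287352) stood at 6.51 FPKM in the mutant and 13.1 FPKM in wild type, 1.87-fold lower. As plain FPKM, the mutant levels were 50.9% and 49.8% of the wild-type levels. These paralogues lie on different chromosomes and differed from each other by 0.03 on the log2 scale. The interval listed for slc15a1a is shared with 10 other gene models, so its value depends on how reads were divided among them. The interval listed for slc15a1b is its own. The third, slc15a2 (PEPT2, the high-affinity peptide carrier of the kidney tubule; chromosome 9, 38372238 to 38391965), stood at 4.65 FPKM in the mutant and 8.03 FPKM in wild type, 1.60-fold lower. In contrast slc15a4, a lysosomal carrier of peptides and histidine in the same family, was close to its wild-type level, at 2.80 FPKM in the mutant and 3.34 FPKM in wild type.

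The carriers of neutral amino acids at the brush border were lower as well. The genes of this group encode B0AT1 (slc6a19), the main sodium-coupled uptake route for neutral amino acids in gut and kidney, and its relative slc6a18. The gene slc6a19b (chromosome 16, 20931543 to 20957787) stood at 12.4 FPKM in the mutant and 24.3 FPKM in wild type, 1.88-fold lower. The other 3 genes are neighbours on chromosome 19 between 624772 and 682602, with 6366 and 5602 bases between them. Of these, slc6a18 stood at 1.66 FPKM in the mutant and 3.14 FPKM in wild type, 1.56-fold lower. Next to it, slc6a19a stood at 6.48 FPKM in the mutant and 9.55 FPKM in wild type, 1.41-fold lower. The third, listed as SLC6A19 (2 of 3), stood at 14.7 FPKM in the mutant and 23.3 FPKM in wild type, 1.55-fold lower. All 4 genes were below their wild-type level, and their summed FPKM was 35.2 in the mutant and 60.2 in wild type. These copies are related in sequence, and how the authors' program divided reads among them is not known. SLC6A14, a broad carrier of neutral and cationic amino acids, was low in both pools, at 1.74 FPKM in the mutant and 2.02 FPKM in wild type.

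The exchanger for cystine and cationic amino acids is a pair of chains, rBAT (slc3a1) and b0,+AT (slc7a9), and both were lower. The light chain gene slc7a9 (chromosome 7, 39899093 to 39920806) stood at 2.38 FPKM in the mutant and 3.87 FPKM in wild type, 1.44-fold lower. The heavy chain gene slc3a1 (chromosome 13, 10214091 to 10237658) stood at 1.72 FPKM in the mutant and 2.42 FPKM in wild type, 1.26-fold lower. On the same chromosome, 166317 bases from slc7a9, slc7a10 encodes Asc-1, an exchanger of small neutral amino acids and D-serine in the brain. It was not lower, at 24.7 FPKM in the mutant and 23.4 FPKM in wild type.

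Carriers known from the basolateral side had a smaller median difference. The split by membrane side was made after the values were seen and uses the sites known from mammals. The 10 apical genes, namely those of slc15a1, slc15a2, slc6a14, slc6a18, slc6a19, slc3a1 and slc7a9, had a median of -0.63 and 6 were at least 1.5-fold lower. The 5 basolateral genes had a median of -0.16 and 0 were at least 1.5-fold lower. Among these, slc7a7 (y+LAT1, which releases cationic amino acids to the blood) was the lowest, at 17.4 FPKM in the mutant and 23.2 FPKM in wild type, 1.32-fold lower. The uniporter of large neutral amino acids, LAT4, has a pair of genes, slc43a2a and slc43a2b. The gene slc43a2b was the most abundant of the class, at 153.7 FPKM in the mutant and 182.6 FPKM in wild type, and slc43a2a stood at 42.2 FPKM in the mutant and 43.7 FPKM in wild type. LAT2 is encoded by SLC7A8 (1 of 2), at 47.0 FPKM in the mutant and 47.2 FPKM in wild type, and by SLC7A8 (2 of 2), at 2.94 FPKM in the mutant and 3.41 FPKM in wild type. The sum over all 16 gut and kidney carriers was 340.8 FPKM in the mutant and 431.5 FPKM in wild type. Over the 10 apical genes the sum was 70.0 FPKM in the mutant and 124.7 FPKM in wild type. The single member of the class above 0 was slc36a1 (PAT1, a proton-coupled carrier of small amino acids), at 7.55 FPKM in the mutant and 6.68 FPKM in wild type. PAT1 is known both from the brush border and from lysosomes in mammals and was placed on neither side. Counted as apical, it makes 6 of 11 apical genes at least 1.5-fold lower, with 1 above 0 and a median of -0.63. The glutamate carrier slc1a1 (EAAT3), known from neurons, gut and kidney, was classed as general and is in neither set. It was close to its wild-type level, at 9.13 FPKM in the mutant and 9.47 FPKM in wild type.

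**Figure D2:**
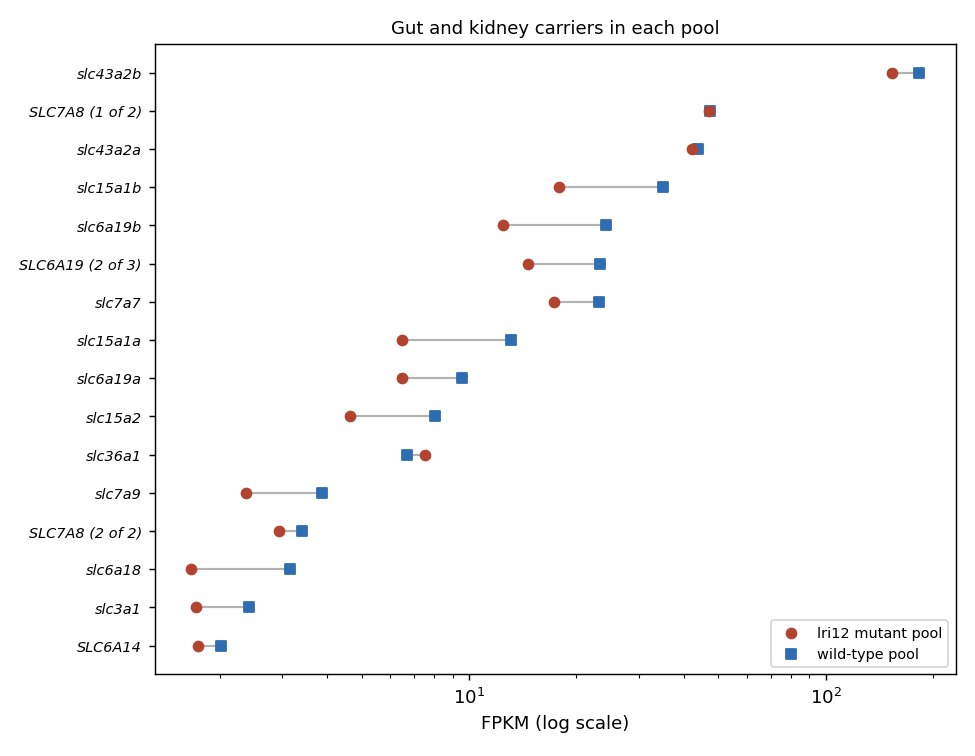
Level of each of the 16 gut and kidney carriers in FPKM on a log axis, ordered by wild-type level, with the lri12 mutant pool as red circles and the wild-type pool as blue squares. The grey line between them is long for slc15a1b (17.8 FPKM in the mutant, 35.0 in wild type) and not visible for SLC7A8 (1 of 2).

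Neural carriers were close to their wild-type levels whether they handle glutamate, inhibitory transmitters or monoamines. The glial glutamate transporter slc1a2b (EAAT2) was the most abundant, at 82.9 FPKM in the mutant and 85.3 FPKM in wild type. SLC6A11, the glial GABA transporter on chromosome 11, stood at 29.8 FPKM in both pools. Within 1.2-fold of the wild-type level were 22 of the 27 neural carriers, 81.5%, against 86.7% of all genes and 6 of the 16 gut and kidney carriers, 37.5%. The median was -0.09 over 10 glutamate transporters, 0.04 over 8 carriers of GABA, glycine and proline, and 0.01 over the 3 monoamine transporters. The monoamine transporters do not carry amino acids of protein and belong to the SLC6 family by sequence. The serotonin transporter slc6a4a stood at 13.0 FPKM in the mutant and 12.8 FPKM in wild type, the dopamine transporter SLC6A3 at 2.25 FPKM in the mutant and 2.23 FPKM in wild type, and the noradrenaline transporter SLC6A2 at 2.49 FPKM in the mutant and 3.45 FPKM in wild type.

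A pair of neural genes lay furthest out, in opposite directions, and in each case the paralogue lay closer to its wild-type level. The glutamate transporter slc1a8b (chromosome 2, 36831336 to 36843995; EAAT6, found in fish) stood at 5.54 FPKM in the mutant and 8.95 FPKM in wild type, 1.52-fold lower. Its paralogue slc1a8a stood at 3.94 FPKM in the mutant and 4.27 FPKM in wild type. The gene listed as slc6a11 on chromosome 6 (40559889 to 40577066) was the highest member, at 8.81 FPKM in the mutant and 5.62 FPKM in wild type, 1.48-fold higher. This lies just inside the 1.5-fold limit, as slc1a8b lies just past it. The glutamine carrier SLC38A8 (1 of 2), known from the retina, was 1.25-fold higher, at 2.13 FPKM in the mutant and 1.51 FPKM in wild type. The smaller differences included the glycine transporter slc6a9 (GlyT1), at 13.4 FPKM in the mutant and 16.4 FPKM in wild type.

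**Figure D3:**
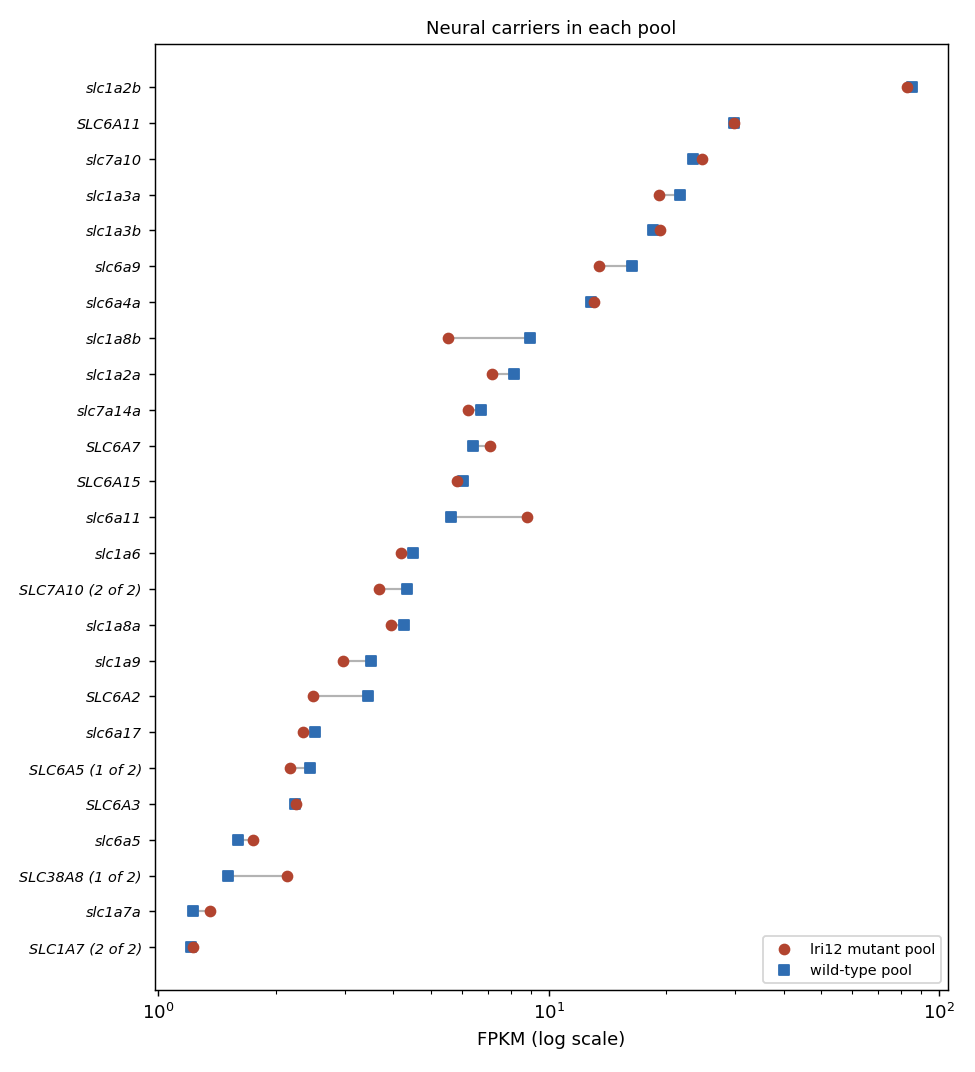
Level of 25 of the 27 neural carriers in FPKM on a log axis, ordered by wild-type level, with the lri12 mutant pool as red circles and the wild-type pool as blue squares. Most pairs of symbols touch, and the visible gaps include slc1a8b (5.54 FPKM in the mutant, 8.95 in wild type) and slc6a11 (8.81 in the mutant, 5.62 in wild type).

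General carriers had a median between those of the other classes, with 24 of 34 below 0 and 10 above. By count they were close to wild type, with 0 past 1.5-fold and 30 of 34 within 1.2-fold, 88.2%. Furthest below 0 were slc6a6, slc38a3, slc38a4 and SLC6A6 (2 of 2), in that order. The taurine transporter slc6a6 (TauT) stood at 10.3 FPKM in the mutant and 15.4 FPKM in wild type, 1.45-fold lower, and its paralogue SLC6A6 (2 of 2) stood at 2.43 FPKM in the mutant and 3.12 FPKM in wild type. The glutamine transporter slc38a3 (SNAT3, of liver, kidney and astrocytes) stood at 78.1 FPKM in the mutant and 101.5 FPKM in wild type, 1.30-fold lower. The liver carrier slc38a4 (SNAT4) stood at 38.8 FPKM in the mutant and 47.9 FPKM in wild type, and slc38a2, 33461 bases from it on chromosome 4, stood at 20.1 FPKM in the mutant and 23.9 FPKM in wild type. Slightly lower than slc38a2 (-0.24) were the purine base carrier slc43a3b (-0.26) and the cationic amino acid carrier slc7a2 (-0.25). The carriers of GABA and taurine slc6a13, slc6a13l and SLC6A13 lay between -0.24 and -0.15.

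The heavy chain 4F2hc, which brings several light chains to the surface, is listed at 3 loci. SLC3A2 (1 of 3) was the most abundant general carrier, at 155.5 FPKM in the mutant and 174.1 FPKM in wild type. The locus slc3a2 stood at 76.7 FPKM in the mutant and 81.0 FPKM in wild type, in an interval shared with 3 other gene models, and SLC3A2 (3 of 3) beside it at 18.7 FPKM in the mutant and 15.8 FPKM in wild type. Its light chain partners in most cells were close to wild type or above it: slc7a5 (LAT1) stood at 17.1 FPKM in the mutant and 16.0 FPKM in wild type, and slc7a6 (y+LAT2) at 7.90 FPKM in the mutant and 7.03 FPKM in wild type. Above 0 by most in the general class, with SLC3A2 (3 of 3), was slc1a4 (ASCT1, an exchanger of alanine, serine and cysteine), 1.17-fold higher. The cationic amino acid transporters slc7a3 and SLC7A1 (1 of 2) stood at 23.8 and 14.9 FPKM in the mutant, and at 22.6 and 15.2 FPKM in wild type. The row of SLC7A1 (1 of 2) also carries the symbol GCFC1. SLC38A9, the lysosomal arginine sensor of the mTORC1 pathway, stood at 5.12 FPKM in the mutant and 4.75 FPKM in wild type.

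**Figure D4:**
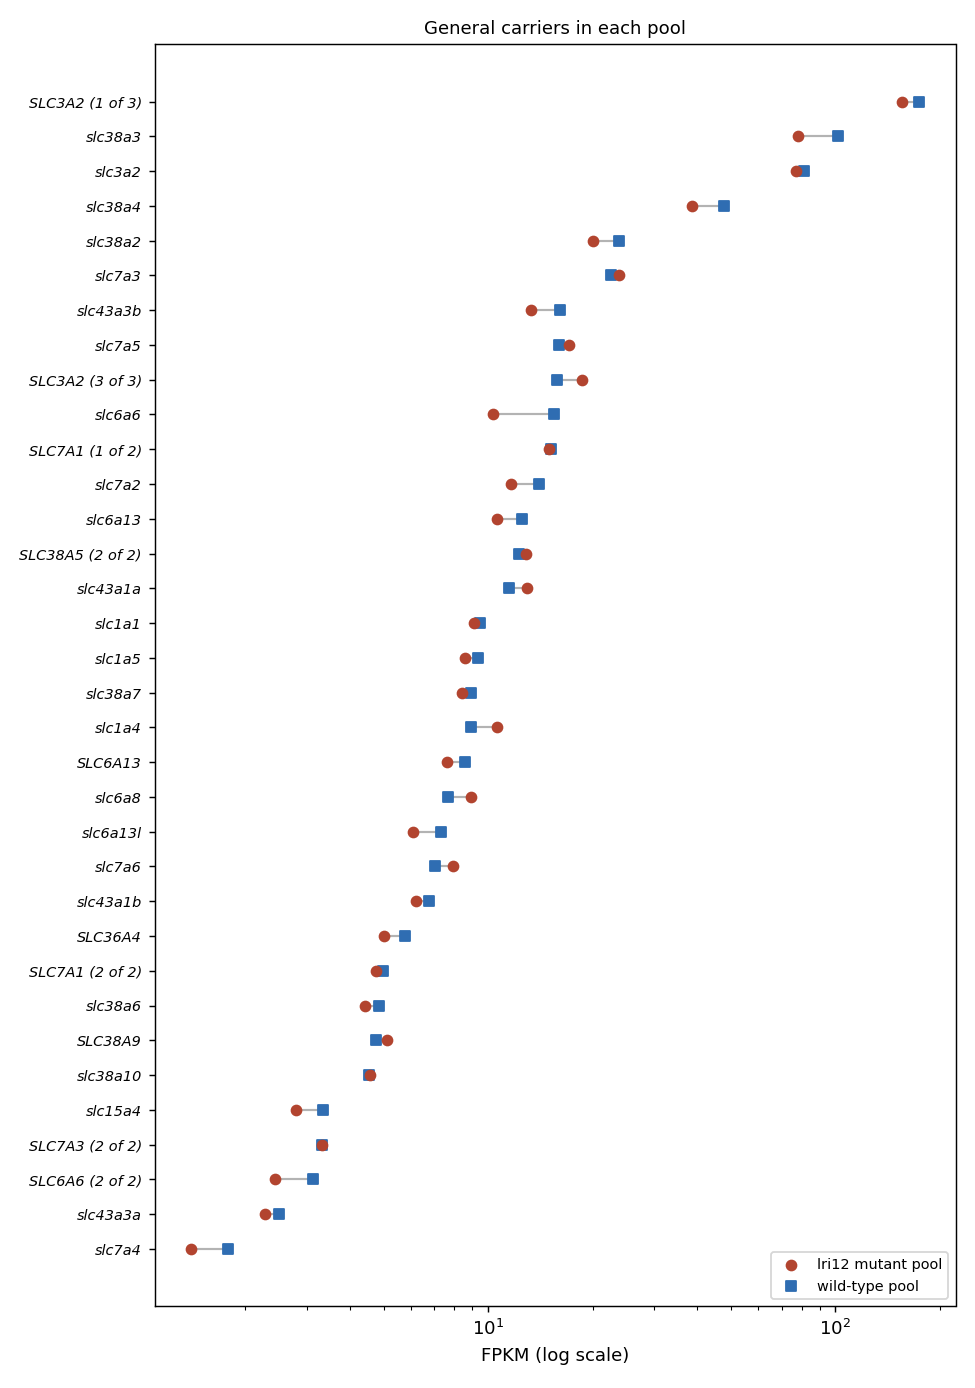
Level of each of the 34 general carriers in FPKM on a log axis, ordered by wild-type level, with the lri12 mutant pool as red circles and the wild-type pool as blue squares. The circles of slc38a3 (78.1 FPKM in the mutant, 101.5 in wild type) and slc6a6 (10.3 in the mutant, 15.4 in wild type) stand left of their squares, and those of SLC3A2 (3 of 3) and slc1a4 stand to the right.

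A list of peptidases, not all of them of the brush border, and of partners of the carriers had a median of similar size. Its members ranged from -1.23 to 0.01. Of 16 entering members of that list, 14 were below 0 and 6 were at least 1.5-fold lower, with a median of -0.44. The meprins mep1a.2 and mep1a.1, metalloproteases of the brush border, stood at 5.06 and 8.20 FPKM in the mutant, and at 13.3 and 17.7 FPKM in wild type. Collectrin, listed as TMEM27 and known as a partner of the B0AT carriers in the mammalian kidney, stood at 11.0 FPKM in the mutant and 12.1 FPKM in wild type. Aminopeptidase N, anpepb, was 1.72-fold lower, at 9.25 FPKM in the mutant and 16.6 FPKM in wild type.

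Amino acid carriers of other families lay closer to their wild-type levels. Over 16 of them the median was -0.09, with 1 at least 1.5-fold lower, slc47a1, an organic cation exporter that does not carry amino acids. The aromatic amino acid carrier slc16a10 stood at 29.4 FPKM in the mutant and 31.5 FPKM in wild type, and the vesicular GABA and glycine carrier slc32a1 at 19.1 FPKM in the mutant and 20.4 FPKM in wild type. Genes of amino acid sensing and of the ATF4 response, which several carriers belong to in mammals, had a median of 0.05 over 26 members, 18 above 0 and 8 below. Past 1.5-fold were cebpb, 1.81-fold higher at 66.5 FPKM in the mutant and 36.4 FPKM in wild type, and the mTORC1 inhibitor DDIT4, 1.59-fold lower at 34.5 FPKM in the mutant and 55.3 FPKM in wild type. Next furthest from 0 were phgdh, 1.41-fold higher at 48.8 FPKM in the mutant and 34.4 FPKM in wild type, and atf3. The gene atf3 was 1.39-fold higher, at 8.97 FPKM in the mutant and 6.18 FPKM in wild type. Asparagine synthetase, asns, stood at 13.4 FPKM in the mutant and 10.3 FPKM in wild type. The median pools sensing genes with genes of the ATF4 response, which were not separated.

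Markers of the cell types that hold these carriers were read in the same libraries. Enterocyte markers had a median of -0.78, with 9 of 13 entering members at least 1.5-fold lower. Their summed level was 3192 FPKM in the mutant and 4233 FPKM in wild type. The largest part of that sum was apoa1, which was not lower, at 1755 FPKM in the mutant and 1664 FPKM in wild type. The intestinal fatty acid binding protein fabp2, for example, stood at 371.0 FPKM in the mutant and 659.7 FPKM in wild type. Kidney tubule markers had a median of -0.07, with 2 of 12 at least 1.5-fold lower and a sum of 201.3 FPKM in the mutant and 265.7 FPKM in wild type. Those 2 were pdzk1, a scaffold of apical carriers that the gut also expresses in mammals, and the sodium pump gene atp1a1a.4. Most of the gap between the sums came from them. The gene atp1a1a.4 stood at 81.5 FPKM in the mutant and 123.3 FPKM in wild type, and pdzk1 at 22.6 FPKM in the mutant and 39.1 FPKM in wild type. The tubule markers cubn and lrp2 averaged under 1 FPKM, so the median does not cover them. They stood at 0.648 and 0.658 FPKM in the mutant, and at 0.946 and 0.819 FPKM in wild type. Of the 12 tubule markers that entered, 9 were below 0 and 3 above. The list was not split by segment of the tubule, so its median does not describe any single segment. Of 15 neuron markers 0 were past 1.5-fold, at a median of -0.04 and a sum of 586.2 FPKM in the mutant and 598.9 FPKM in wild type. Glia markers had a median of 0.01, with 1 of 11 at least 1.5-fold lower, the myelin gene plp1b, and a sum of 1059 FPKM in the mutant and 953.1 FPKM in wild type. Most of the gap between the glia sums came from fabp7a, at 547.8 FPKM in the mutant and 455.9 FPKM in wild type. Exocrine pancreas markers were lower in 12 of 13 (median -1.20), with a sum of 5213 FPKM in the mutant and 11961 FPKM in wild type. Hepatocyte markers had a median of -0.10, with 4 of 13 at least 1.5-fold lower (tat, fabp10a, hpda and serpina1). Their sum was 8464 FPKM in the mutant and 8457 FPKM in wild type. Most of that sum was apoa2, listed as zgc:193613, at 5768 FPKM in the mutant and 4944 FPKM in wild type. None of the matched markers of these lists was at 0 in both pools. The part of the cell type markers in the difference of the carriers was not tested.

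**Figure D5:**
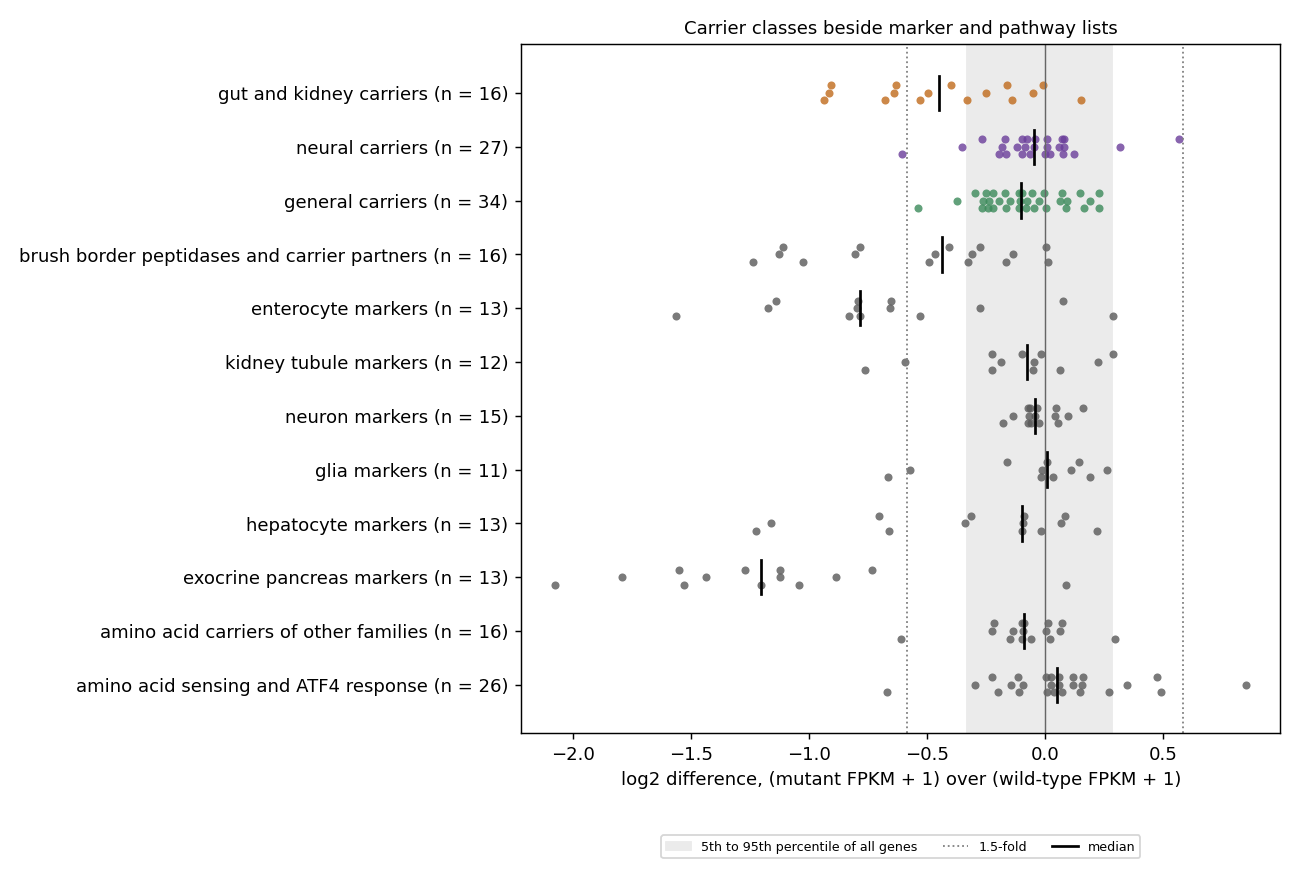
Log2 difference, mutant over wild type on the log2(FPKM + 1) scale, of the carrier classes (coloured) and of marker and pathway lists (grey). Points are genes, black ticks are medians, the grey band runs from the 5th to the 95th percentile of all genes and dotted lines mark 1.5-fold. The medians were -0.45 for gut and kidney carriers and -0.44 for the list of peptidases and carrier partners. Both lie between those of enterocyte markers (-0.78) and kidney tubule markers (-0.07). The neural carriers and neuron markers share a median of -0.04.

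In the authors' deposited table, 0 of the 88 loci had a q under 0.05, beside 0.348% of the 31308 loci the authors tested. Among these 88 loci, the smallest p and q in the authors' deposited table were those of slc15a1b (p 0.0002, q 0.0522) and slc6a19b (p 0.0004, q 0.0963). By the unadjusted p of the authors' deposited table, 11 loci lay under 0.05, of which 10 were lower and 1, slc6a11, higher, and 8 of the 11 were gut and kidney carriers. Of all tested loci, 2.59% had such a p in the authors' deposited table. Those values come from 1 pool against 1 pool and do not measure variation between clutches.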

How the data were processed

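RNA of 2 whole-larva pools was sequenced by the authors, and 1 table with a row per locus was deposited. CASAVA, Bowtie and the build Zv9 appear in the submitters' processing notes, without versions, and per the file headers the columns are those of a Cuffdiff comparison. The deposited values were taken as FPKM, since no label states the unit. The p-values and q-values quoted were deposited by the authors. How strand and multi-mapped reads were treated is unknown here, as is absolute depth.

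The 19 loci with a failed estimate were left out. Loci sharing a symbol were summed, and a row with joined symbols counted as 1 gene. A gene needed an average of 1 FPKM to enter. The limits of 1.5-fold and 2-fold are rules of size. Symbols in capitals, some with a copy number, were kept as the table gives them. Of 190 entries in marker and pathway lists, 156 matched as written, 23 through RefSeq synonyms (assembly GRCz12tu, names only) and 11 not at all. Muscle, red cell, epidermis and leukocyte markers had medians of 0.07, -0.28, 0.08 and -0.03.

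Named genes were all gut and kidney carriers, members past 1.5-fold, the 5 most abundant of each class, paralogues and partners, and up to 4 of each list. Other general and neural carriers, asns, TMEM27, slc16a10, slc32a1, apoa1, apoa2, cubn and lrp2 were chosen after their values were seen. Some genes are counted here but not reported by name. Members, classes and lists were chosen with earlier results of these data known. The call at 2-fold was tested on simulated data, with larger changes planted in well expressed genes. The 1.5-fold counts and the class medians were not tested in this way. The computation was run in Python 3.11.15 with pandas 2.3.3.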

Additional observations from a re-analysis of the deposited data

How the results depend on the processing

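The gut and kidney median stayed below 0 under 8 other settings and 3 regroupings of the carriers, the regroupings chosen after seeing the data. Several of these could not have changed its direction. A change of pseudocount keeps the sign of every gene. Using no filter, taking the highest locus, and leaving out the joined locus or the monoamine transporters altered no gene of the class. Those left the median at -0.45. A pseudocount of 5, which shrinks low genes by its construction, gave the gut and kidney carriers a median of -0.28. The gap to the neural carriers was then -0.24, with 3 members at least 1.5-fold lower in place of 7. Under this pseudocount slc15a2, slc6a18, SLC6A19 (2 of 3) and slc1a8b came inside 1.5-fold. A pseudocount of 0.1 brought 1 member, slc6a11, to at least 1.5-fold higher and slc7a9 to at least 1.5-fold lower. Without the peptide carriers the gut and kidney median was -0.33, the gap -0.29 and the number of members at least 1.5-fold lower 4. Without slc7a8, slc36a1, slc43a2 and slc6a14 the median was -0.63 and the gap -0.59. The genes left out here are the members of the class nearest to 0 or above it. Their removal therefore had to lower the median. Lower-case symbols alone, the highest locus of a symbol, leaving out the joined locus, no filter, a mean of at least 5 FPKM, rescaling to a median of 0, and leaving the monoamine transporters out moved neither the gut and kidney nor the neural median by more than 0.1 and no count by more than 1.5 times. No paired analysis was possible because each genotype has 1 pool, and no pool could be left out. Carriers of a few FPKM rest on few reads of unknown number.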
